A study of Mus musculus with 23 samples.

Results

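Genes of the ATF4 stress response and of serine synthesis were compared in livers of mice with and without an activated *Braf* allele. The 10 genes, *Atf4*, *Atf3*, *Ddit3*, *Trib3*, *Asns*, *Chac1*, *Fgf21*, *Phgdh*, *Psat1* and *Ddit4*, were matched by symbol among the 27179 genes of the count table, and all 10 had reads. RNA came from livers of 15 female mice, sampled away from visible tumors. All mice carried the hepatocyte-active *Alb-Cre* transgene, *Trp53* flx/flx and at least 1 floxed *Icmt* allele. Ctrl mice (n = 6) had wild type *Braf* and *Icmt* flx/+. ABpIF/+ mice (n = 6) carried the knock-in allele *Braf*CA/+, which gives Braf V600E after Cre recombination, and *Icmt* flx/+. ABpIF/F mice (n = 3) carried *Braf*CA/+ and *Icmt* flx/flx. The sample labels write BRAF +/+ for both mutant groups, and *Braf*CA/+ is taken from the series' design text. Ages are not in the labels, and the study's text describes ABpIF/F mice as tumor-bearing and of differing age. By genotype, ABpIF/+ and Ctrl mice thus differ in *Braf*, ABpIF/F and Ctrl mice in *Braf* and *Icmt*, and the mutant groups in *Icmt*. The comparisons with Ctrl also differ in strain label, since 5 Ctrl mice carry a label that no mutant mouse has. *Alb-Cre* acts in cells that express albumin, and recombined alleles pass to their descendants, which can include bile duct cells, while other liver cells keep the alleles unrecombined. The study describes the floxed *Icmt* allele as hypomorphic, so its expression can be reduced without Cre as well.

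ATF4 is a transcription factor whose mRNA is translated more when the initiation factor eIF2alpha is phosphorylated. Kinases that do so sense amino acid shortage, misfolded protein in the endoplasmic reticulum, viral RNA or lack of heme, and the program is called the integrated stress response. ATF4 protein can therefore rise with little change of its mRNA, and its target genes make amino acids, import them and damp the response. Serine is made from a glycolytic intermediate by PHGDH, PSAT1 and PSPH in turn, and it feeds glycine and folate one-carbon units. Adult liver is known to express the first enzymes of this route at a low level when dietary protein is ample.

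Depth was 24742910 to 32262649 counts on genes per mouse. The gene meant to differ between the mutant groups, *Icmt*, was at 15.2 to 16.6 CPM in ABpIF/F mice and at 27.8 to 37.4 CPM in the other 12. CPM are read counts relative to library size, after TMM scaling in edgeR. Livers held the 7 hepatocyte markers checked, with summed levels of 103228 to 142476 CPM in Ctrl, 202020 to 284924 in ABpIF/+ and 162786 to 251786 in ABpIF/F mice. Markers of bile duct cells summed to 35.8 to 68.4 CPM in Ctrl and 29.9 to 145 in ABpIF/+ mice, but to 205, 1150 and 779 in the ABpIF/F mice BG183, BG38 and BG90. Markers of stellate cells (164 to 227 CPM in Ctrl, 38.5 to 83.6 in ABpIF/+), macrophages (215 to 295 and 77.1 to 138), lymphocytes (12.6 to 18.6 and 2.30 to 7.67) and proliferating cells (9.45 to 19.3 and 3.35 to 5.76) were all lower in ABpIF/+ than in Ctrl mice, without overlap. In ABpIF/F mice these 4 sets were at 150 to 268, 182 to 384, 14.8 to 47.1 and 11.0 to 23.0 CPM, above every ABpIF/+ mouse. The part of these cell types in the ABpIF/+ vs Ctrl and ABpIF/+ vs ABpIF/F differences was not tested. In bulk tissue, fewer cells of a type and less RNA per cell cannot be told apart. A score of 12 circadian clock genes was 1.44 to 3.53 in ABpIF/F mice and 2.65 in the Ctrl mouse malpa387, and -1.37 to -0.37 in the 11 others. The Ctrl mouse BG3 and all mutant mice share a strain label, and the other 5 Ctrl mice carry another.

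Promoters are shown first, because ATF4 binds with C/EBP partners to a short element that many of its target genes carry near their start. RefSeq sequences (GRCm38.p6) from 250 bases before to 50 after the start were found for all 10 genes. The core TGATGNAA, searched on both strands, occurred in 1304 of 32851 promoters (3.97%) and in 5 of the 10 genes, namely *Atf3*, *Asns*, *Chac1*, *Fgf21* and *Trib3*. The stricter TGATGCAA occurred in 294 promoters (0.895%) and in *Atf3*, *Chac1* and *Fgf21*. *Fgf21* alone also held the E-box CACGTG, 50 bases before its start, which 7.15% of promoters hold. The CRE letters TGACGTCA and the ERSE motif of the unfolded protein response were in none of the 10 windows, and in 1.79% and 0.119% of all promoters. These matches are descriptions of letters and do not show binding. Below are the 200 bases before the start of 4 genes that hold the core upstream, with the core in capitals. The *Atf3* start is an inner one, downstream of the outermost end of the gene given later.
Asns, chr6:7693210-7693409, minus strand: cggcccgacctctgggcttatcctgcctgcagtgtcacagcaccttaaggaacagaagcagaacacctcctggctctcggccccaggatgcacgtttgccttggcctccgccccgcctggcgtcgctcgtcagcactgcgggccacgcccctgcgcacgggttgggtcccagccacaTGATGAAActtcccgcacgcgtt
Atf3, chr1:191183334-191183533, minus strand: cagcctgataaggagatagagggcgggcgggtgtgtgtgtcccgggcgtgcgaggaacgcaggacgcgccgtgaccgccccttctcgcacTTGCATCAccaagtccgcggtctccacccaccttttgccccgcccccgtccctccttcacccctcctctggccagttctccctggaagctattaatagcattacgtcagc
Chac1, chr2:119351042-119351241, plus strand: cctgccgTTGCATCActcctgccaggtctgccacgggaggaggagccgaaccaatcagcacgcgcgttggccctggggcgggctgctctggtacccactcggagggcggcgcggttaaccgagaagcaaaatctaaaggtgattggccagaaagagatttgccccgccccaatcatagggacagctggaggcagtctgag
Fgf21, chr7:45615491-45615690, minus strand: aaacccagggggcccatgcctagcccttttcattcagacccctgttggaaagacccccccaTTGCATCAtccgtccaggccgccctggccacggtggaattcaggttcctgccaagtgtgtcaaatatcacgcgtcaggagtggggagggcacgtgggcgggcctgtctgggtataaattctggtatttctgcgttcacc
The core starts 23 bases before the *Asns* start and reads TGATGAAA on the gene's own strand. In *Atf3*, *Chac1* and *Fgf21* it lies on the opposite strand, so that the gene's strand reads TTGCATCA, at 110, 193 and 139 bases before the start. In *Trib3* it lies after the start, at base 15.

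Calls required an edgeR quasi-likelihood adjusted p below 0.01 (Benjamini-Hochberg over all genes) together with a 2-fold difference, 1 on the log2 scale. SE is the standard error of a log2 fold change, and gene positions are those of GRCm38 (GENCODE M21). In ABpIF/+ vs Ctrl, 5 of the 10 genes were called upregulated, where 6.26% of the 20380 genes with a read were. They were *Asns*, *Phgdh*, *Psat1*, *Trib3* and *Atf3*, and none was downregulated, against 7.13% of all genes. With *Atf4*, 6 were higher at any fold, against 12.3%. Every ABpIF/+ mouse lay above every Ctrl mouse for 6 of the 10, against 10.4% of all genes with a read. In ABpIF/F vs Ctrl, 5 of the 10 were called upregulated against 6.06% of all genes, and 0 were downregulated against 3.17%. Every ABpIF/F mouse lay above every Ctrl mouse for 4 of the 10, against 12.4%. Both comparisons use the same Ctrl mice. With the clock score as a covariate only *Phgdh* was called in ABpIF/F vs Ctrl, at 4.54 (SE 0.80). *Asns* (4.25, SE 1.13), *Psat1* (3.53, SE 1.01) and *Trib3* (2.595, SE 0.64) had edgeR adjusted p of 0.0444, 0.0585 and 0.0305 there, with larger errors than without the covariate, and *Atf3* was at 1.14 (SE 0.52). Adding the strain label left only *Asns* (8.42, SE 1.71) and *Phgdh* (4.34, SE 0.94) called in ABpIF/F vs Ctrl, while *Psat1* was at 4.43 (SE 1.24), *Atf3* at 1.70 (SE 0.76) and *Trib3* at 1.40 (SE 0.71). Of all genes, 1236 were upregulated in ABpIF/F vs Ctrl without a covariate, 402 with the clock score and 457 with the strain label. The median log2 fold change of the 10 genes was 1.79 in ABpIF/+ vs Ctrl and 1.498 in ABpIF/F vs Ctrl, beside 0.00 and 0.09 over all genes with a read. Of the 5 genes that hold the core TGATGNAA, 3 were called in each of these comparisons, and of the 5 without it, 2 were.

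**Figure D1:**
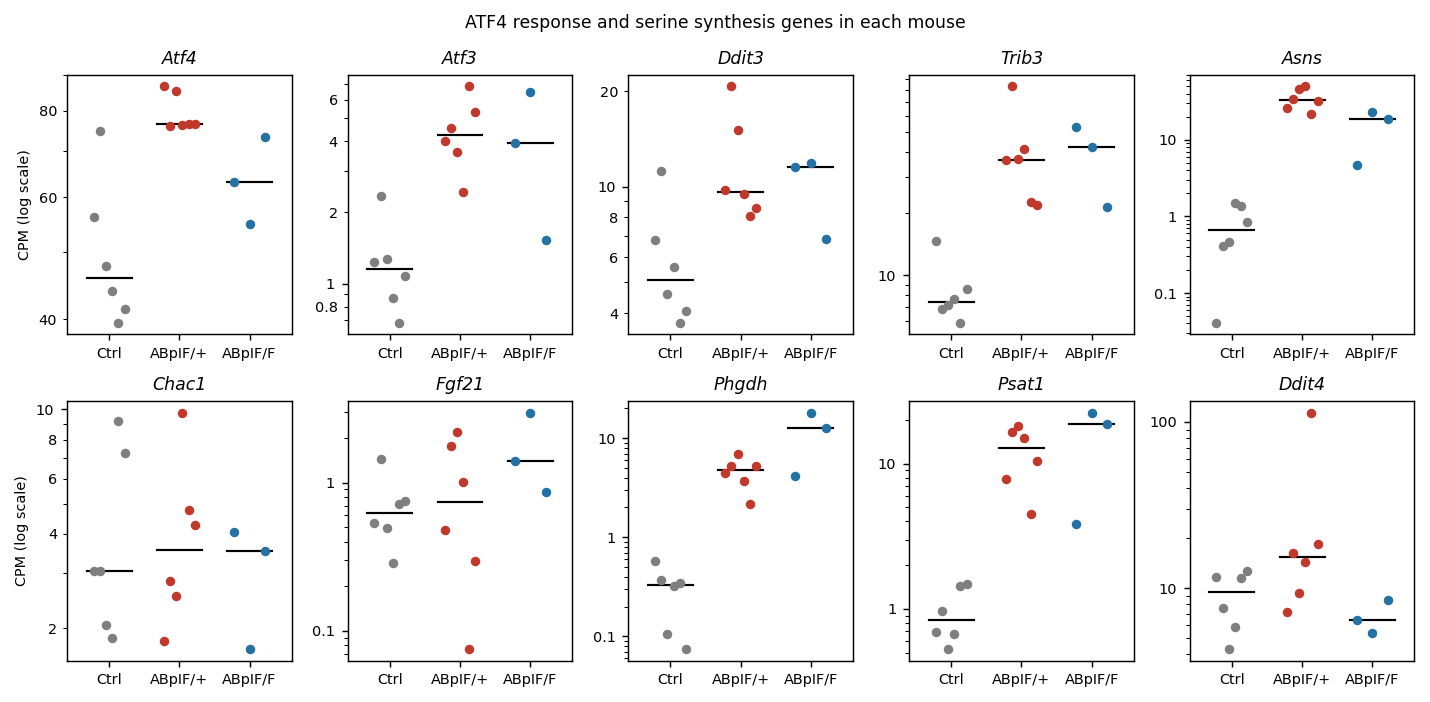
CPM (log scale) of the 10 genes in each of the 15 mice, with points for mice and black lines for group medians. The Ctrl points of *Asns*, *Phgdh*, *Psat1* and *Trib3* lie below every mutant mouse, and a single ABpIF/+ mouse stands at 113.7 CPM for *Ddit4*.

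Of the 10 genes, *Asns* differed most in ABpIF/+ vs Ctrl. *Asns* (Entrez 27053, chr6:7675169-7693254, minus strand) encodes asparagine synthetase and is a widely used readout of ATF4. Its level in Ctrl mice was 0.0410 CPM at the lowest (BG3, 1 read), 0.658 at the median and 1.51 at the highest. In ABpIF/+ mice it was 22.1, 33.5 and 50.1 CPM. The ABpIF/F mice BG183, BG38 and BG90 were at 4.63, 23.2 and 18.8 CPM. No mutant mouse came near the Ctrl range, and BG183 was the lowest of the mutants by a wide margin. In ABpIF/+ vs Ctrl the log2 fold change was 5.46 (SE 0.55, edgeR adjusted p = 6.02e-06), which is 44.0-fold. The ABpIF/F difference from Ctrl was 4.28 (SE 0.58, edgeR adjusted p = 0.000167).

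*Phgdh* (Entrez 236539, chr3:98313170-98339990, minus strand) encodes phosphoglycerate dehydrogenase, the first enzyme of serine synthesis. Ctrl mice had between 2 and 14 reads, with CPM of 0.0746, 0.331 and 0.574 at the lowest, median and highest. The levels in ABpIF/+ mice were 2.19, 4.82 and 6.90 CPM. ABpIF/F mice were at 4.14 (BG183), 18.1 (BG38) and 12.8 CPM (BG90). Both mutant groups lay apart from Ctrl, and BG38 and BG90 lay above every ABpIF/+ mouse while BG183 lay among them. The log2 fold change was 3.94 (SE 0.44, edgeR adjusted p = 1.96e-06) in ABpIF/+ vs Ctrl and 5.28 (SE 0.47, edgeR adjusted p = 4.33e-07) in ABpIF/F vs Ctrl, or 15.4-fold and 38.9-fold.

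*Psat1* (Entrez 107272, chr19:15904678-15947337, minus strand) encodes phosphoserine aminotransferase, the next step. In Ctrl mice it was at 0.530, 0.833 and 1.49 CPM (lowest, median, highest) and in ABpIF/+ mice at 4.53, 12.7 and 18.2. The ABpIF/F mice BG183, BG38 and BG90 were at 3.85, 22.5 and 18.9 CPM. Every mutant mouse was above every Ctrl mouse, and BG183 was again the lowest of its group. The log2 fold change was 3.64 (SE 0.49, edgeR adjusted p = 6.05e-05) in ABpIF/+ vs Ctrl. It was 3.95 (SE 0.53, edgeR adjusted p = 0.000121) in ABpIF/F vs Ctrl. The gene *Gm3329* overlaps *Psat1* on the other strand, and the strand setting of the counting is not given in the sources used here.

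Among the ABpIF/F mice, *Asns*, *Phgdh* and *Psat1* had the same order of levels, with BG183 lowest, BG90 between and BG38 highest. The markers of 6 other cell types had that order too. They were bile duct cells (205, 779 and 1150 CPM), neutrophils (4.73, 28.9 and 84.3), macrophages (182, 327 and 384), lymphocytes (14.8, 22.6 and 47.1), proliferating cells (11.0, 16.6 and 23.0) and red blood cells (47.6, 61.0 and 84.6). Markers of stellate cells (191, 150 and 268), endothelial cells (229, 161 and 177) and hepatocytes (251786, 251521 and 162786) did not have that order. The share of all genes with that order of the 3 mice was not counted. The part of any cell type in the levels of the 3 genes was not tested. In the ABpIF/+ group, BG55 was lowest for all 3 genes, at 22.1, 2.19 and 4.53 CPM, and lowest for bile duct markers (29.9). BG31, highest for bile duct markers (145), was highest for *Phgdh* and *Psat1*, and BG40, highest for *Asns*, had bile duct markers of 59.1 CPM. The only Ctrl mouse with the strain label of the mutants, BG3, was at 0.0410, 0.574 and 0.697 CPM of *Asns*, *Phgdh* and *Psat1*, which is the lowest, the highest and an inner Ctrl value. With the strain label as a covariate, which rests on that mouse, only *Asns* stayed called in ABpIF/+ vs Ctrl, and its value moved from 5.46 to 9.60 (SE 1.67). *Phgdh* was at 2.99 (SE 0.88, edgeR adjusted p = 0.0364) and *Psat1* at 4.11 (SE 1.21, edgeR adjusted p = 0.0475), with errors about 2 times as large or more. *Atf3* was at 1.85 (SE 0.74) and *Trib3* at 1.45 (SE 0.68), neither of them called.

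*Trib3* (Entrez 228775, chr2:152337422-152344032, minus strand) encodes a pseudokinase that ATF4 induces and that in turn inhibits it. Its levels in Ctrl mice were 5.88, 7.40 and 14.8 CPM, the highest being BG3. In ABpIF/+ mice they were 22.0, 36.6 and 83.3 CPM, and in the ABpIF/F mice BG183, BG38 and BG90 53.1, 42.3 and 21.4. All mutants exceeded all Ctrl mice, and here BG183 was the highest of its group, unlike for the amino acid enzymes. The log2 fold changes were nearly equal, at 2.26 (SE 0.37, edgeR adjusted p = 0.00035) in ABpIF/+ and 2.206 (SE 0.41, edgeR adjusted p = 0.00184) in ABpIF/F vs Ctrl. In the latter the adjusted p rose to 0.0106 without BG183 and to 0.0116 without BG38.

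Of the transcription factors, *Atf4* itself (Entrez 11911, chr15:80255184-80257541, plus strand) had the smallest significant difference. Ctrl mice were at 39.5, 45.8 and 74.7 CPM, where malpa387 was the highest and the next was at 56.1. ABpIF/+ mice were tightly grouped at 76.1, 76.5 and 86.7 CPM. The ABpIF/F mice were at 63.0, 54.9 and 73.3 CPM (BG183, BG38, BG90). The ABpIF/+ mice all lay above the Ctrl mice and above the ABpIF/F mice, and the ABpIF/F and Ctrl ranges overlapped. In ABpIF/+ vs Ctrl the log2 fold change was 0.66 (SE 0.14, edgeR adjusted p = 0.000735), a 1.58-fold difference that is under the 2-fold threshold. For ABpIF/F against Ctrl it was 0.34 (SE 0.16, edgeR adjusted p = 0.195), and 0.48 (edgeR adjusted p = 0.0133) without malpa387.

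*Atf3* (Entrez 11910, chr1:191170296-191218039, minus strand), a stress-induced repressor and activator downstream of ATF4, was at 0.684, 1.16 and 2.35 CPM in Ctrl mice. It was at 2.44, 4.27 and 6.83 CPM in ABpIF/+ mice and at 3.95 (BG183), 6.45 (BG38) and 1.54 CPM (BG90) in ABpIF/F mice. The lowest ABpIF/+ mouse was just above the highest Ctrl mouse, malpa387, and BG90 lay within the Ctrl range. The log2 fold change was 1.84 (SE 0.34, edgeR adjusted p = 0.000261) in ABpIF/+ vs Ctrl. Between ABpIF/F and Ctrl it was 1.68 (SE 0.39, edgeR adjusted p = 0.00354). Without BG38 this fell to 1.15 (edgeR adjusted p = 0.0838), and without BG183 the adjusted p was 0.0105.

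*Ddit3* (Entrez 13198, chr10:127290774-127296288, plus strand) encodes CHOP, the factor linked to cell death under prolonged stress. Ctrl mice were at 3.73, 5.09 and 11.2 CPM and ABpIF/+ mice at 8.11, 9.62 and 20.7 CPM. ABpIF/F mice were at 11.5, 11.9 and 6.82 CPM (BG183, BG38, BG90). The groups overlapped through the Ctrl mouse malpa387, which was the highest Ctrl mouse for *Atf4*, *Atf3*, *Ddit3* and *Fgf21*. The log2 fold change in ABpIF/+ vs Ctrl was 1.00 (SE 0.29, edgeR adjusted p = 0.0185), which did not pass the test. Without malpa387 it was 1.27 (edgeR adjusted p = 0.000898) and passed, as it did with the clock score as a covariate, at 1.15 (edgeR adjusted p = 0.00274). In ABpIF/F vs Ctrl it was 0.76 (SE 0.35, edgeR adjusted p = 0.18). *Ddit3* overlaps the methionyl-tRNA synthetase gene *Mars1* on the other strand, and *Mars1* had log2 fold changes of -0.07 and 0.00 in these comparisons.

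**Figure D2:**
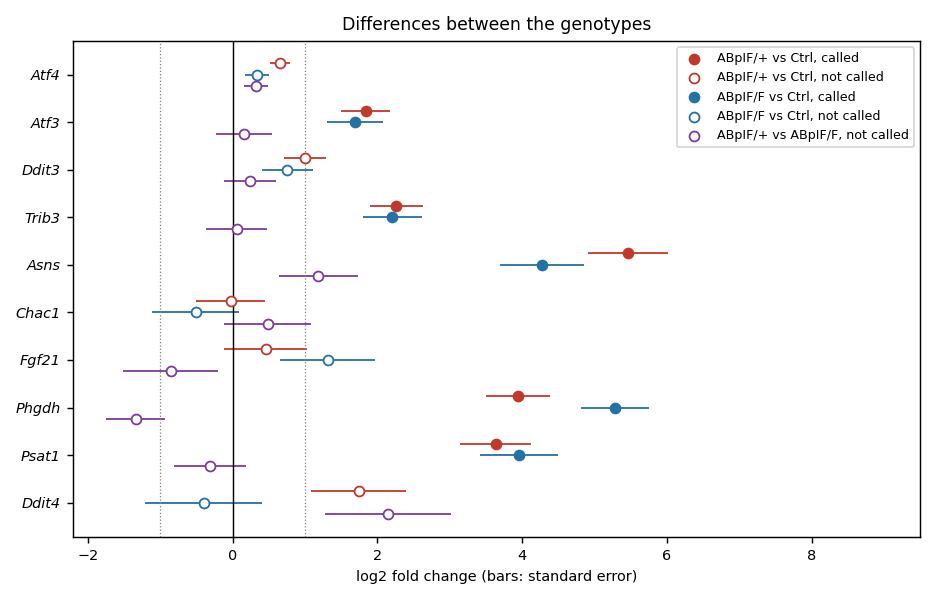
Log2 fold change of each gene in the 3 comparisons of the groups, with standard errors as bars, filled points for called genes and dotted lines at a 2-fold difference. Filled points are at *Atf3*, *Trib3*, *Asns*, *Phgdh* and *Psat1* in both comparisons with Ctrl and nowhere in ABpIF/+ vs ABpIF/F.

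The remaining targets did not pass the test in any of the 3 comparisons. *Chac1* (Entrez 69065, chr2:119351229-119354381, plus strand) encodes a glutathione-degrading enzyme and is known as a sensitive ATF4 target in cultured cells. It was at 1.86, 3.04 and 9.17 CPM in Ctrl mice, 1.82, 3.55 and 9.75 CPM in ABpIF/+ mice and 4.05, 1.72 and 3.54 CPM in BG183, BG38 and BG90. These ranges nearly coincided, and the log2 fold change in ABpIF/+ vs Ctrl was -0.03 (SE 0.47, edgeR adjusted p = 1.0). In ABpIF/F vs Ctrl it was -0.51 (SE 0.60, edgeR adjusted p = 0.76).

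*Fgf21* (Entrez 56636, chr7:45613886-45615490, minus strand) encodes a hormone that liver secretes in fasting and under amino acid stress. Its counts were low, from 2 to 107 reads per mouse. Ctrl mice were at 0.289, 0.624 and 1.45 CPM, ABpIF/+ mice at 0.0754, 0.743 and 2.18, and ABpIF/F mice at 1.40 (BG183), 2.96 (BG38) and 0.857 (BG90). All 3 groups overlapped. The log2 fold change was 0.45 (SE 0.58) in ABpIF/+ vs Ctrl and 1.31 (SE 0.66) in ABpIF/F vs Ctrl, with edgeR adjusted p of 0.756 and 0.221. Among 7 genes of its receptor complex and regulation, the receptor *Fgfr1* rose in both comparisons, with log2 fold changes of 2.37 and 2.47, and *Fgfr2* rose in ABpIF/F vs Ctrl (1.10). *Fgfr3* and *Mlxipl* fell in ABpIF/+ vs Ctrl (-1.49 and -1.04). Without BG38, 1 of the 7 rather than 2 rose in ABpIF/F vs Ctrl. The coreceptor *Klb* had log2 fold changes of 0.50 and -0.03 and was not called.

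*Ddit4* (Entrez 74747, chr10:59949669-59951834, minus strand) encodes REDD1, which restrains the growth kinase complex mTORC1. Its levels were 4.31, 9.55 and 12.6 CPM in Ctrl mice, and 6.46 (BG183), 5.37 (BG38) and 8.43 CPM (BG90) in ABpIF/F mice. In ABpIF/+ mice they were 7.19, 15.3 and 113.7 CPM. The highest value belongs to BG55, and the next mouse was at 18.4 CPM. The log2 fold change in ABpIF/+ vs Ctrl was 1.74 (SE 0.66, edgeR adjusted p = 0.0734), and 0.56 (edgeR adjusted p = 0.208) without BG55. In ABpIF/+ vs ABpIF/F it was 2.15 (SE 0.87, edgeR adjusted p = 0.121), and 0.96 (edgeR adjusted p = 0.093) without BG55. Of 14 other genes that restrain or feed mTORC1, 3 rose in ABpIF/F vs Ctrl, and *Fnip2* fell (-1.20). Those that rose were the REDD1 relative *Ddit4l* (2.17), the arginine sensor gene *Castor1* (1.31) and its relative *Castor2* (1.04). Without BG38 or with the clock score as a covariate 1 rose and 0 fell, and with the strain label 0 rose and 0 fell. In ABpIF/+ vs Ctrl, *Sesn3* alone of the 14 was called, at -1.21, and with the strain label none was.

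Levels of the genes were compared with each other as CPM per kilobase of exon. In Ctrl livers the mean was 21.4 for *Atf4*, followed by *Ddit4* at 5.08, *Trib3* at 3.98, *Ddit3* at 3.50 and *Chac1* at 2.69. *Fgf21* (0.741), *Atf3* (0.579), *Asns* (0.283), *Psat1* (0.227) and *Phgdh* (0.120) came last. *Atf4*, from 16.8, stood clear of *Ddit4*, up to 7.18, and all other neighbours in this order had overlapping ranges. In ABpIF/+ livers the order of means was *Atf4* (33.7), *Trib3* (19.0), *Ddit4* (17.0), *Asns* (12.9), *Ddit3* (6.97), *Psat1* (2.84), *Chac1* (2.64), *Atf3* (2.07), *Phgdh* (1.85) and *Fgf21* (1.02). The *Ddit4* mean there includes BG55, at 113.7 CPM, where the next mouse was at 18.4 CPM. In ABpIF/F livers the order of means was *Atf4* (27.0), *Trib3* (18.3), *Ddit3* (5.89), *Asns* (5.68), *Phgdh* (4.69), *Ddit4* (3.85), *Psat1* (3.54), *Chac1* (1.89), *Atf3* (1.85) and *Fgf21* (1.83). Ranges of neighbours overlapped in ABpIF/+ mice except between *Ddit3*, from 4.73, and *Psat1*, up to 4.28. In ABpIF/F mice they overlapped except between *Trib3*, from 10.1, and *Ddit3*, up to 6.95.

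The mutant groups differ by genotype in *Icmt*, and they also differed in several cell type markers and in the clock score given above. In ABpIF/+ vs ABpIF/F, 0 of the 10 genes were called by edgeR. Of all genes, 2.35% were upregulated and 7.32% downregulated there. At an unadjusted p under 0.05 there were 2 genes, *Phgdh* and *Ddit4*, and DESeq2 called 1, *Phgdh* (adjusted p = 0.0071). The share of all genes at that unadjusted p was not counted. *Phgdh* was lower in ABpIF/+ mice, at -1.34 on the log2 scale (SE 0.40, edgeR adjusted p = 0.0261). Its value was -1.74 without BG183 (edgeR adjusted p = 0.00135) and -0.87 without BG38 (edgeR adjusted p = 0.247). *Asns* was on the other side, at 1.18 (SE 0.55, edgeR adjusted p = 0.181), with a mean of 35.3 ± 11.1 CPM (SD, n = 6) in ABpIF/+ and 15.5 ± 9.69 CPM (SD, n = 3) in ABpIF/F mice. For *Psat1*, *Trib3* and *Atf3* the log2 fold changes were -0.32, 0.05 and 0.16, each under 1 SE from 0. For *Atf4* every ABpIF/+ mouse lay above every ABpIF/F mouse, as for 12.2% of all genes with a read. Its log2 fold change was 0.32 (SE 0.17, edgeR adjusted p = 0.225). With the clock score as a covariate the difference of *Phgdh* was -0.48 (edgeR adjusted p = 1.0).

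*Psph*, which completes serine synthesis after *Phgdh* and *Psat1*, was at 4.43 ± 0.799 CPM (SD, n = 6) in Ctrl, 8.70 ± 2.24 (SD, n = 6) in ABpIF/+ and 10.7 ± 4.67 (SD, n = 3) in ABpIF/F mice. The difference was 0.97 on the log2 scale (edgeR adjusted p = 0.000836) in ABpIF/+ vs Ctrl, short of the threshold, and 1.27 (edgeR adjusted p = 0.000479) in ABpIF/F vs Ctrl. Against Ctrl it thus differed by 0.97 and 1.27, where *Phgdh* differed by 3.94 and 5.28. Of 26 further genes of serine, glycine and folate one-carbon metabolism, *Psph* included, 4 rose and 2 fell in each comparison with Ctrl, and their median log2 fold changes were -0.11 and -0.12. Under the strain covariate 1 rose and 4 fell in ABpIF/+ and 1 rose and 3 fell in ABpIF/F vs Ctrl. With the clock score 5 rose and 3 fell in the former, and 0 rose and 1 fell in the latter.

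The mitochondrial folate enzymes moved unequally. *Mthfd1l*, which releases formate, was at 2.13 ± 0.966 CPM in Ctrl and 27.9 ± 5.78 in ABpIF/+ mice, a log2 fold change of 3.70 (SE 0.28, edgeR adjusted p = 2.23e-08). In ABpIF/F mice it was at 4.64 ± 1.66 CPM (SD, n = 3), and ABpIF/+ vs ABpIF/F was itself called, at 2.58 (SE 0.34, edgeR adjusted p = 6.35e-05). *Mthfd2* had log2 fold changes of 0.93 (not called) and 1.74 (called) against Ctrl in ABpIF/+ and ABpIF/F mice, at means of 1.44 and 2.52 CPM. *Aldh1l2* rose in both, by 1.84 and 3.01. *Shmt2*, which turns serine into glycine in mitochondria and is also an ATF4 target, was lower in both, at -0.89 and -0.81 (edgeR adjusted p = 1.08e-05 and 0.000743), short of the 2-fold threshold.

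Some serine-degrading genes also differed between the mutant groups. The serine dehydratase gene *Sds* was at 314 ± 76.2 CPM in Ctrl, 909 ± 401 in ABpIF/+ and 207 ± 143 in ABpIF/F mice. On the log2 scale it differed by 1.53 (edgeR adjusted p = 0.00468) in ABpIF/+ vs Ctrl and 2.13 (edgeR adjusted p = 0.00578) in ABpIF/+ vs ABpIF/F. The related *Sdsl* had values of 1.90 and 1.53 in those comparisons and was called in both. Serine racemase (*Srr*) fell in both mutants against Ctrl, by 1.80 and 1.53 on the log2 scale. *Amt*, of the glycine cleavage system, fell by 1.63 in ABpIF/+ vs Ctrl. The glycine methyltransferase gene *Gnmt* fell in ABpIF/F vs Ctrl (-1.55). In ABpIF/+ vs ABpIF/F with the clock score as a covariate, *Sdsl* was still called at 1.93 (edgeR adjusted p = 0.00575). *Mthfd1l* was at 2.07 (edgeR adjusted p = 0.0311) and *Sds* at 2.56 (edgeR adjusted p = 0.0622) there, and neither was called. Without BG38, *Sds* was at 1.82 (edgeR adjusted p = 0.0419).

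**Figure D3:**
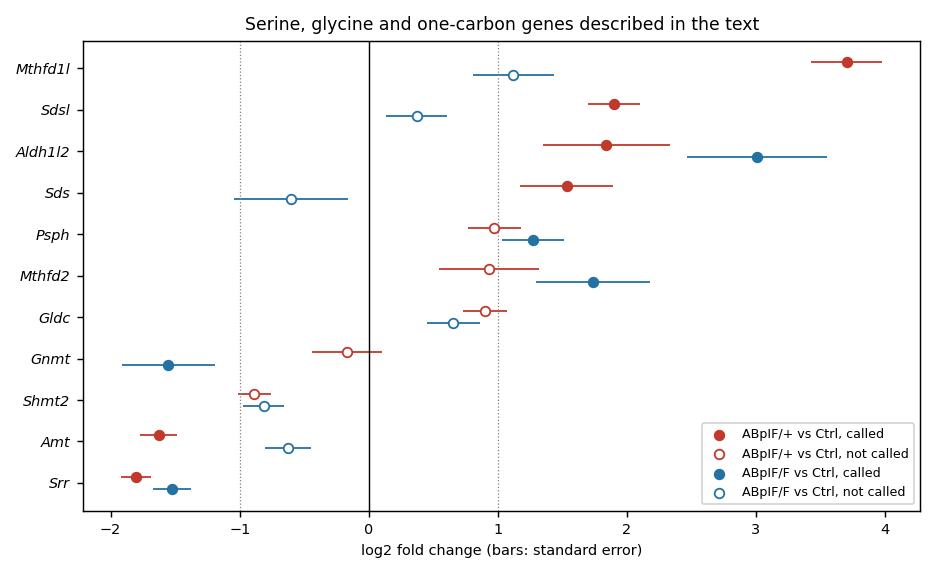
Log2 fold change against Ctrl of the serine, glycine and one-carbon genes described here, with standard errors as bars and filled points for called genes, ordered by ABpIF/+ vs Ctrl. *Mthfd1l* leads at 3.70 in ABpIF/+ and is not called in ABpIF/F, and *Srr* is the lowest in ABpIF/+ at -1.80.

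Other known ATF4 targets were called in both directions. For these and all other lists, the shares of all genes with a read were 6.26% up and 7.13% down in ABpIF/+ vs Ctrl. In ABpIF/F vs Ctrl they were 6.06% and 3.17%. The numbers of genes were 1275 up and 1454 down, and 1236 and 647. With the strain label they were 546 and 811, and 457 and 691. With the clock score they were 1313 and 1410, and 402 and 361. Without BG38, 774 rose and 438 fell in ABpIF/F vs Ctrl. Of 16 amino acid transporter and amino acid metabolism genes, 2 rose and 1 fell in ABpIF/+ vs Ctrl, and 4 rose and 2 fell in ABpIF/F vs Ctrl, with medians of 0.58 and 0.57. None rose in either comparison with the strain label, with the clock score 0 rose in ABpIF/F vs Ctrl, and without BG38 2 rose there. Without malpa387, 1 rose in ABpIF/+ vs Ctrl. The glutamine transporter *Slc1a5* rose in ABpIF/+ vs Ctrl (1.198), and the arginine transporter *Slc7a1* rose in both (1.02 and 1.49). *Slc7a5*, the large neutral amino acid transporter, fell in ABpIF/+ vs Ctrl (-1.45). *Slc1a4*, which carries alanine and serine, rose in ABpIF/F vs Ctrl by 1.97, as did the proline synthesis gene *Aldh18a1* by 2.11. The cystine transporter *Slc7a11* was called there too, but its 3 mice ranged from 0.0653 to 3.96 CPM. *Cth* and *Gpt2* fell in ABpIF/F vs Ctrl (-1.47 and -1.02). In ABpIF/+ vs ABpIF/F, 3 of the 16 were higher and 3 lower, where 2.35% and 7.32% of all genes were. With the clock score 1 was higher and 0 lower, and without BG38 2 and 1. Over all genes, 263 were higher and 210 lower with the clock score, and 367 and 788 without BG38. At an unadjusted p under 0.05 there were 10, 13 and 10 of the 16 in the 3 comparisons.

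Of 16 regulators and secreted factors under ATF4, 2 rose and 1 fell in ABpIF/+ vs Ctrl, and 1 rose in ABpIF/F vs Ctrl. The strain covariate left 1 that rose in the former and 0 in the latter, and with the clock score 0 rose in the latter. *Nupr1*, a stress-induced chromatin protein, rose in both (1.63 and 2.603), and *Sesn2*, a leucine sensor, in ABpIF/+ mice (1.15). *Stc2* was called lower in ABpIF/+ mice, in which no mouse had more than 3 reads. *Gdf15*, a hormone of cell stress that lowers appetite, had log2 fold changes of -0.44 and 0.93 with edgeR adjusted p of 0.497 and 0.169. *Ppp1r15a*, the feedback phosphatase subunit, was at 0.53 (edgeR adjusted p = 0.00364) and 0.23 (edgeR adjusted p = 0.431). In ABpIF/+ vs ABpIF/F, 0 of the 16 were higher and 2 lower. With the clock score none was called there, and without BG38 1 was lower. At an unadjusted p under 0.05 there were 10, 5 and 11 of the 16 in the 3 comparisons.

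Upstream of ATF4, 0 of 16 genes for eIF2alpha kinases, phosphatase subunits and eIF2B were called by edgeR or by DESeq2 in any comparison, with medians of 0.06 and -0.25 against Ctrl. At an unadjusted p under 0.05 there were 11, 11 and 8 of them in the 3 comparisons, each under 2-fold. The share of all genes at that p was not counted, here or for other lists. These counts are thus not read as many or few. In ABpIF/+ vs Ctrl 1 fell with the strain label, and in ABpIF/F vs Ctrl 1 fell with the clock score. The amino acid sensing kinase *Eif2ak4* was at 0.41 (edgeR adjusted p = 0.00327) and 0.35 (edgeR adjusted p = 0.0472) in ABpIF/+ and ABpIF/F vs Ctrl. *Eif2ak3*, the kinase of the endoplasmic reticulum, was at 0.29 and 0.67, *Eif2ak2* at -0.32 and 0.57, and *Eif2ak1* at -0.15 and -0.36. *Ppp1r15b* was at -0.24 and -0.76. Kinase activity and eIF2alpha phosphorylation were not measured here.

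The ATF6 and XBP1 arms of the unfolded protein response, 23 genes, had 0 called in ABpIF/+ vs Ctrl by edgeR and by DESeq2, and 12 at an unadjusted p under 0.05. Their medians were 0.01 and 0.10 against Ctrl. The chaperone gene *Hspa5* was at 0.77 (edgeR adjusted p = 0.0173) and 0.45 (edgeR adjusted p = 0.356), and *Herpud1* fell in ABpIF/F vs Ctrl (-1.15), though with the clock score no gene of the 23 was called there. Cytosolic aminoacyl-tRNA synthetases, many of them ATF4 targets, had 0 of 20 called by edgeR in the 3 comparisons, with medians of -0.09 and 0.00 against Ctrl, and DESeq2 called 1 lower in ABpIF/+ vs Ctrl. Their counts at an unadjusted p under 0.05 were 14, 7 and 6. In ABpIF/+ vs Ctrl, 2 of them fell with the strain label and 1 without malpa387, and in ABpIF/+ vs ABpIF/F 1 was lower without BG38. Of 10 mitochondrial stress genes, *Trap1* fell in ABpIF/+ (-1.002) and *Hspd1* in ABpIF/F vs Ctrl (-1.20). In the latter 2 fell with the clock score and 3 with the strain label.

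**Figure D4:**
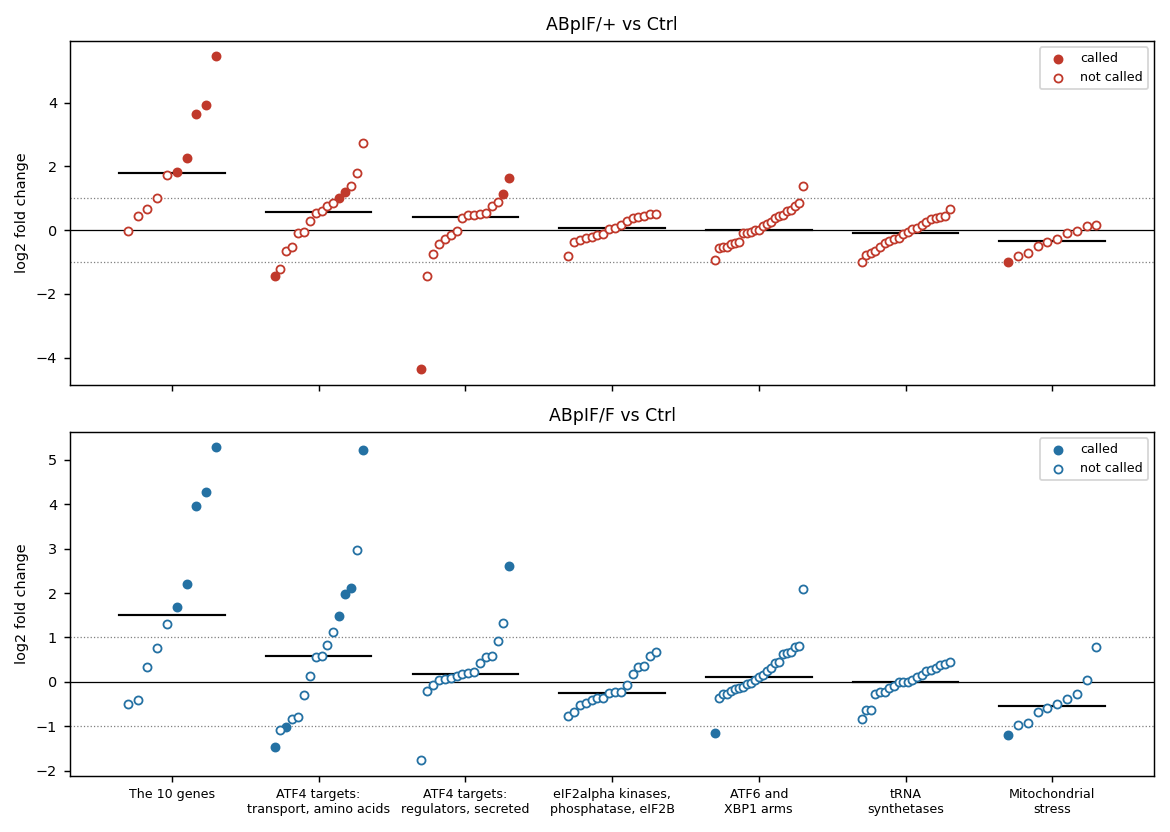
Log2 fold change against Ctrl of the 10 genes and of 6 related lists, with filled points for called genes, black lines for medians and dotted lines at a 2-fold difference. The medians of the 10 genes are 1.79 and 1.498, and those of the other lists lie between -0.55 and 0.58.

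The genes whose levels over the 15 mice were most like those of *Atf4*, among 9535 genes at a mean of 5 CPM or more, were *Ing2*, *Dus3l* and *Gldc*, with Pearson r of log2 CPM of 0.94, 0.94 and 0.93. For *Asns* they were *Ccdc88c* (0.98), *Tgfbr2* (0.97) and *Gpc3* (0.97), and for *Phgdh* *Tmem176b* (0.98), *Uap1l1* (0.97) and *Tpra1* (0.97). The 15 points share the 3 genotypes, and any gene that differs strongly between Ctrl and the mutants scores high. *Gldc*, which breaks down glycine, was at 132 CPM in Ctrl, 247 in ABpIF/+ and 208 in ABpIF/F mice on average. *Gpc3* was at 0.814, 372 and 131 CPM, in the same order of groups as *Asns*.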

How the data were processed

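RNA of 15 livers was measured in 3 genotypes. Total RNA was made into stranded mRNA libraries. The authors aligned trimmed paired-end reads with HISAT2 (2.21 in the submitters' processing notes) to mm10, and read counts came from featureCounts 2.0.8. The annotation and strand setting are not given in the sources used here. The deposited values are raw counts per gene, 1 column per mouse, though 23 samples are listed and 8 mice are named by 2. A second deposited table held the same counts in the 10 columns compared. Its other 5 count columns, and its columns of the authors' fold changes and p-values, were not used. Mice were grouped by genotype labels.

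Counts were fitted in R 4.3.3 with edgeR 4.0.16 (TMM, robust quasi-likelihood in its older form, 3 groups in 1 model, no filter) and adjusted by Benjamini-Hochberg over 27179 genes. Replicates are mice. Log2 CPM used a prior count of 2. Exon lengths came from GENCODE M21, because the table has no lengths, and promoters from RefSeq (GRCm38.p6). Members, gene lists and tests were chosen with earlier results of these data known. All 10 genes are described, with up to 3 called genes per list and comparison, set regulators, and the 3 genes most like *Atf4*, *Asns* and *Phgdh*. Alternatives were DESeq2 1.42.0, other scaling, filters, thresholds and covariates, and leaving out each mouse. The fit was tested on simulated data. Total counts per mouse limit precision for genes under 1 CPM. Some genes of the lists are counted but not reported by name here.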

Additional observations from a re-analysis of the deposited data

Results flagged for a closer look

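In 20 groups of 6 mice (10 genes in Ctrl and ABpIF/+), 5 held a mouse far from the others, each the highest of its group. The rule flags about 1 in 20 groups by chance only where values are normally distributed. It was applied to CPM without a log scale, for which that rate was not checked, so the count is not set against chance. *Ddit4* in the ABpIF/+ mouse BG55 was at 113.7 CPM, with a gap to the next mouse that was 0.895 of the range of its group. *Trib3* was at 14.8 CPM in the Ctrl mouse BG3 (0.701 of the range) and at 83.3 CPM in the ABpIF/+ mouse BG30 (0.688). *Atf3* was at 2.35 CPM in the Ctrl mouse malpa387 (0.646), and *Chac1* at 9.75 CPM in the ABpIF/+ mouse BG40 (0.630). The groups of 3 ABpIF/F mice were not examined in this way.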

How the results depend on the processing

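Of the 10 genes, 5 were called in ABpIF/+ vs Ctrl and 5 in ABpIF/F vs Ctrl also with RLE size factors, DESeq2, a filter on low counts, the newer quasi-likelihood form, no robust estimation and an adjusted p under 0.05. A 4-fold threshold left 4 in ABpIF/+ vs Ctrl, and *Atf3*, at 1.68, was under it in ABpIF/F vs Ctrl as well. With only the groups compared in the fit, *Atf3* was not called in ABpIF/F vs Ctrl (edgeR adjusted p = 0.0104). With the strain label as a covariate the counts were 1 and 2, and with the clock score 6 and 1. Over all genes, those upregulated went from 1275 and 1236 to 546 and 457 with the strain label. With the clock score they were 1313 and 402. The strain term rests on 1 Ctrl mouse, and the clock score is high in all ABpIF/F mice. In ABpIF/+ vs ABpIF/F, 0 were called, against 1 (*Phgdh*) with DESeq2 or an adjusted p under 0.05. Leaving out each mouse gave 5 to 6, 3 to 5 and 0 to 1 called genes in the 3 comparisons. Without BG183 or without BG38, *Atf3* and *Trib3* were not called in ABpIF/F vs Ctrl, which left 3, and *Phgdh* was called in ABpIF/+ vs ABpIF/F without BG183.

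Among log2 fold changes of single genes under other settings, 295 kept direction and call, 14 lost and 4 gained the call, and 7 changed sign, none of them called in either fit. These counts include changed thresholds on the main fit, under which the direction could not change. With the strain label *Chac1* was at 0.51 in ABpIF/+ and 0.0255 in ABpIF/F vs Ctrl. With the clock score *Atf4* was at -0.0949 and *Chac1* at 0.0828 in ABpIF/F vs Ctrl, and *Trib3* at -0.38, *Chac1* at -0.17 and *Psat1* at 0.15 in ABpIF/+ vs ABpIF/F. The cause was not tested. With single mice left out, *Chac1* ranged from -0.444 to 0.328 in ABpIF/+ vs Ctrl. In ABpIF/+ vs ABpIF/F, *Atf3* ranged from -0.227 to 0.694, *Trib3* from -0.290 to 0.341 and *Psat1* from -0.775 to 0.0911.

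The stricter core TGATGCAA was in 3 promoters instead of 5. Scaling by total counts moved the mean of *Atf4* in ABpIF/+ mice to 74.0 CPM. ABpIF/+ vs ABpIF/F with the strain label was not run, since these groups share 1 label. No paired analysis was possible because the count columns carry no replicate numbers and the numbers in the titles name samples of 1 mouse. In Ctrl mice *Phgdh* rests on 2 to 14 reads and *Asns* on 1 to 47, which limits the precision of their fold changes.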

Other observations

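Genes outside the ATF4 response that were listed beside it also differed. Of 18 immediate early genes, which respond to growth signals within minutes, 11 rose in ABpIF/+ vs Ctrl and 5 in ABpIF/F vs Ctrl, with median log2 fold changes of 2.26 and 1.59. With the strain label 4 rose in ABpIF/+ and 3 in ABpIF/F vs Ctrl, and with the clock score 11 and 2. *Fos* rose by 4.04 and 2.59 and *Btg2* by 4.79 and 2.88. Of 12 glucocorticoid-induced genes, 7 rose in ABpIF/+ vs Ctrl, among them *Fkbp5* (2.16) and *Cdkn1a* (4.02), against 1 that rose and 2 that fell in ABpIF/F vs Ctrl. In ABpIF/+ vs ABpIF/F, 5 of the 12 were higher. With the strain label 0 of the 12 were called in ABpIF/+ vs Ctrl, at a median of 1.38 against 1.61 without it. With the clock score, or without BG38, 0 rose in ABpIF/F vs Ctrl and 3 were higher in ABpIF/+ than in ABpIF/F mice.

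Of 18 genes of fasting and PPARalpha, 8 fell and 2 rose in ABpIF/+ vs Ctrl, and 11 fell and 1 rose in ABpIF/F vs Ctrl. *Ehhadh*, an enzyme of peroxisomal fatty acid oxidation, fell in both (-1.94 and -2.04). *Igfbp1*, which fasting and ATF4 are both known to induce, rose by 5.45 and 3.85. With the clock score as a covariate, 6 of the 18 fell in ABpIF/+ and 5 in ABpIF/F vs Ctrl, and with the strain label 4 and 6. Without BG38, 7 fell in ABpIF/F vs Ctrl. Of the 8 clock genes that lower the score, 4 fell in ABpIF/F vs Ctrl.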
